A study of Homo sapiens with 2 samples.

Results

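Chromatin accessibility was described at the loci of 10 mucin genes in the breast cancer line CAMA-1, which is of epithelial origin. The genes were the gel-forming mucins MUC2, MUC5AC, MUC5B and MUC6 and the membrane-bound mucins MUC1, MUC4, MUC13, MUC15, MUC16 and MUC20. A locus was the gene body in GENCODE release 44 (hg38) with 20 kb on each side. The loci held 119 of the 245736 ATAC-seq peaks of replicate 1 and 122 of the 259745 peaks of replicate 2. Peaks of the replicates that overlapped by at least 1 bp were merged into regions, and 95 of the 215195 regions with a peak in both replicates lay over the mucin loci. Each region near 2 mucin genes was counted once in this total.

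In ATAC-seq, the Tn5 transposase cuts DNA that is free of nucleosomes and leaves sequencing adapters at the cuts, so that stacks of reads mark accessible chromatin. Here it was run on 2 biological replicates of 50000 untreated cells from a long-term passage of CAMA-1, grown in adherent culture. Both replicates belonged to the same condition, so no groups of samples were compared and all values are given per replicate or as mean ± SD (n = 2). Each peak carried a fold enrichment, the highest stack of reads in the peak relative to the background of the peak caller, each with 1 added. The peak lists gave no read counts, so the depth of the libraries was not known from them, and signal below the threshold of the peak caller was not detectable.

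Mucins are large glycoproteins whose central part is a tandem repeat rich in serine and threonine, to which O-linked sugars are attached. Membrane-bound mucins span the plasma membrane and coat the apical surface of epithelial cells, where MUC1 and MUC4 also take part in signaling. Gel-forming mucins are secreted and joined end to end into the mucus of the gut and airways, and their 4 genes lie side by side on chromosome 11. MUC1 is made by mammary luminal cells and is known from breast cancer as the source of the serum marker CA15-3, and MUC16 carries the ovarian cancer marker CA125. MUC2, MUC5AC and MUC6 are characteristic of intestinal goblet cells and of the stomach rather than of the breast.

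The promoters below are shown because they span the range of what was measured at the starts of the mucin genes, from the strongest peak (MUC1) to a gene with a weak peak in a single replicate (MUC2) and a gene with no peak near its main start (MUC4). They are the hg38 bases directly upstream of the first annotated exons, on the strand of the gene, and capitals mark matches, on either strand, to the binding motifs listed later. The MUC1 promoter (chr1:155192917-155193165, minus strand) held 6 matches, of which an AP-2 match overlapped a run of SP/KLF matches, and the last was a TATA box. The MUC2 promoter (chr11:1074625-1074874, plus strand) held an AP-1 match and the printed MUC4 bases (chr3:195811974-195812179, minus strand) no match. The 300 bp around the canonical MUC4 start, which include exon bases left out here, held SP/KLF and STAT matches.
MUC1 promoter: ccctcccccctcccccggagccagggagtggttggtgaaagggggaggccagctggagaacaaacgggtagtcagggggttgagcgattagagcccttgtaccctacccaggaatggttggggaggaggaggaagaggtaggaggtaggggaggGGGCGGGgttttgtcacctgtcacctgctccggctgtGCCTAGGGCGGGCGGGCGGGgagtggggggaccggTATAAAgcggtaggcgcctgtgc
MUC2 promoter: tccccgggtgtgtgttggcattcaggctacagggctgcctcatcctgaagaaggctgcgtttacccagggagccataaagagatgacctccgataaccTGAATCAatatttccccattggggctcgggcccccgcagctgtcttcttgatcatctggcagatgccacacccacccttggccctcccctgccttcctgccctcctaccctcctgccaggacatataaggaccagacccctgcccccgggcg
MUC4 promoter: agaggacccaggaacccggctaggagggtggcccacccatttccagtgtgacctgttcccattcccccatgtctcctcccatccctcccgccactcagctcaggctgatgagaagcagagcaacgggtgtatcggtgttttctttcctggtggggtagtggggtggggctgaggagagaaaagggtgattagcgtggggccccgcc

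The central 201 bp of 3 regions away from any start are shown because these were the strongest such regions in the MUC4, MUC6 and MUC5B loci. The sequence in MUC4 (chr3:195804420-195804620, plus strand) lay in intron 1 of the gene and held 2 STAT matches and an AP-2 match. The sequence upstream of MUC6 (chr11:1051137-1051337, plus strand) lay in an intron of the non-coding gene LINC02688, and the sequence downstream of MUC5B (chr11:1262689-1262889, plus strand) was intergenic. Neither held a match, and the latter carried several copies of a short repeat.
MUC4 intron 1: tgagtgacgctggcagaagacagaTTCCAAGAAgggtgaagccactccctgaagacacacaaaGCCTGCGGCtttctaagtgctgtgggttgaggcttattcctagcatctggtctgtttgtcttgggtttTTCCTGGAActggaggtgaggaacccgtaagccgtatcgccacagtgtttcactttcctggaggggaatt
MUC6 upstream: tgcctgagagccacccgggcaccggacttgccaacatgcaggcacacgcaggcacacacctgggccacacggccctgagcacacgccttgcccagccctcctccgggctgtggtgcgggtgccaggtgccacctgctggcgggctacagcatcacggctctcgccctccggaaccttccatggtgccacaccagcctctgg
MUC5B downstream: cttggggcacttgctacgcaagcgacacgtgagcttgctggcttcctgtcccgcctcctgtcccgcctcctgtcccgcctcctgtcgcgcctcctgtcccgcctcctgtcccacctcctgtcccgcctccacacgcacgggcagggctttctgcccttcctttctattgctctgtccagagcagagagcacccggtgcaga

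A peak within 1 kb of an annotated transcription start site (TSS) was present in both replicates at 6 of the 10 mucin genes, namely MUC1, MUC5AC, MUC5B, MUC13, MUC15 and MUC16. Over all 20033 protein-coding genes of the annotation, 79.3% had a TSS peak in both replicates, 2.08% in a single replicate and 18.6% in neither. MUC20 and MUC2 had a TSS peak in replicate 1 alone, MUC4 in replicate 2 alone, and MUC6 in neither. In a bulk assay of this kind, a start open in fewer cells and a start opened less often in each cell cannot be told apart. Of the membrane-bound mucins 4 of 6 had a TSS peak in both replicates, and of the gel-forming mucins 2 of 4. When both peaks were required to reach a −log10 q of 10, MUC5AC dropped out and 5 of 10 mucin genes remained, against 76.9% of protein-coding genes. When the single start of the canonical transcript was used in place of any annotated start, MUC1, MUC5AC, MUC5B and MUC15 remained, against 73.5% of protein-coding genes.

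MUC1, which encodes the main mucin of the luminal surface of breast epithelium, had by far the strongest TSS peak of the 10 genes. Its fold enrichment was 217 in replicate 1 and 203 in replicate 2, a mean of 210 ± 10.1. The gene ranked 110 of 20033 by this measure and stood at percentile 99.5 of all protein-coding genes and at percentile 97.6 of those on chromosome 1. The peak height was 944 stacked reads (95% Poisson interval 885 to 1006) in replicate 1 and 918 (860 to 979) in replicate 2. Intervals of this kind cover counting error alone.

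The MUC1 peak was also unusually wide, with 6766 bp (chr1:155191919-155198684) in replicate 1 and 6055 bp (chr1:155191932-155197986) in replicate 2, where the median peak measured 297 and 300 bp. It began inside the gene, covered its TSS at 155192915 and continued upstream to within 1 kb of annotated starts of MIR92B, THBS3-AS1 and THBS3, which encodes an extracellular matrix thrombospondin. The peak lists held no summit positions, so the base with the greatest enrichment could lie at any of these starts. The same peak therefore gave THBS3 its value of 210. The higher percentile over all genes than over those of chromosome 1 stands beside the MUC1 value, and the part of chromosome 1 as a whole in that value was not tested.

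MUC5B, the gel-forming mucin of airway and salivary mucus, came second. Its TSS peak had a fold enrichment of 40.5 in replicate 1 and 42.2 in replicate 2 (41.4 ± 1.23), a width of 3562 and 3527 bp, and covered the start of the gene at 1223066 on chromosome 11. This level was 5.08 times below that of MUC1. It was slightly under the median of 52.6 among the protein-coding genes with TSS peaks in both replicates, whose lower and upper quartiles were 28.3 and 83.4. MUC5B thus stood at percentile 51.5 of all protein-coding genes, genes without a peak included, and at percentile 64.7 of those on chromosome 11.

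The other TSS peaks were weaker than the lower quartile of protein-coding genes with such peaks. MUC13, a membrane-bound mucin of the gut epithelium, had 17.3 in replicate 1 and 19.0 in replicate 2 (18.1 ± 1.24). That peak lay in intron 1, 893 and 886 bp from an internal start at 124927771, just inside the limit of 1 kb, and 5812 and 5809 bp from the canonical start at 124934751. MUC15, a small membrane-bound mucin whose gene lies within that of ANO3, had 10.6 and 11.9 (11.3 ± 0.959) in a peak 497 and 515 bp from its canonical start, and replicate 2 held a further peak of 4.64 over the start itself. MUC16 had 6.67 and 6.19 (6.43 ± 0.340) at the upstream start at 9010390, and no peak within 5047 bp of the canonical start at 8981342.

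MUC5AC, the gel-forming mucin of the stomach surface, had the weakest TSS peaks of these genes, with fold enrichments of 3.91 in replicate 1 and 4.42 in replicate 2 and heights of 16 (9.15 to 26.0) and 19 (11.4 to 29.7) stacked reads. The MUC5AC peaks, at 249 and 34 bp from its start, did not overlap each other. MUC20, which encodes a kidney-expressed mucin, had 7.13 in replicate 1 in a peak 798 bp from an annotated start and a further peak of 4.37 over its canonical start, and no TSS peak in replicate 2. MUC2 had 4.83 in replicate 1 alone, in a peak 31 bp upstream of its start. A stronger MUC2 region (24.2 and 17.9) ended 1081 bp upstream of the start, just outside the limit of 1 kb. MUC4 had 4.64 in replicate 2 alone, at an internal start. MUC6 had no TSS peak in either replicate, and the peak closest to its canonical start at 1036718 was at a distance of 3469 bp in replicate 1 and of 6658 bp in replicate 2.

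**Figure D1:**
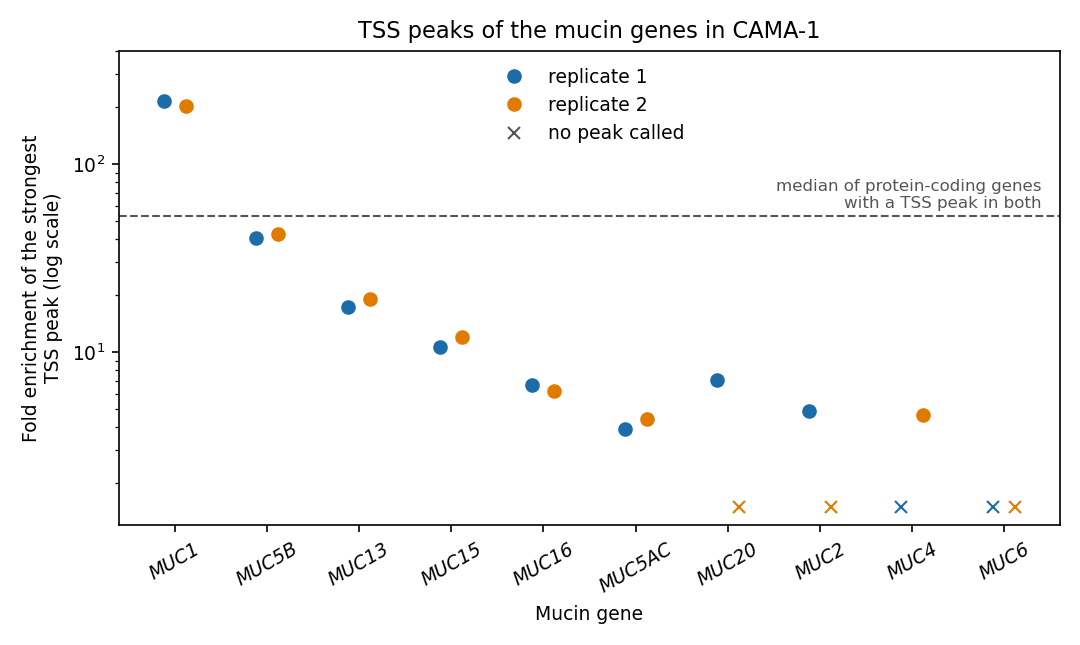
The strongest TSS peak of each mucin gene, as fold enrichment on a log scale, with replicate 1 in blue and replicate 2 in orange. Crosses at the foot mark replicates without a called peak. MUC1 sits at 217 and 203, above the dashed median of 52.6 of protein-coding genes with TSS peaks, and the other 9 genes sit below it.

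Among the 6 genes with TSS peaks in both replicates, the order was MUC1, MUC5B, MUC13, MUC15, MUC16 and MUC5AC, and the values of neighbors in this order did not overlap between replicates. The means of neighbors differed by a factor between 1.54 (MUC16 over MUC5AC) and 5.08 (MUC1 over MUC5B). Within each replicate, the counting intervals of the peak heights were separate for MUC1 and MUC5B and for MUC5B and MUC13. Those of MUC15 and MUC16 overlapped in replicate 1 and were separate in replicate 2. Those of MUC13 and MUC15 and those of MUC16 and MUC5AC overlapped in both replicates, which does not show that their heights were equal. With 2 replicates for each gene an exact permutation test could not reach a p-value below 0.333, and none was run between genes.

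**Figure D2:**
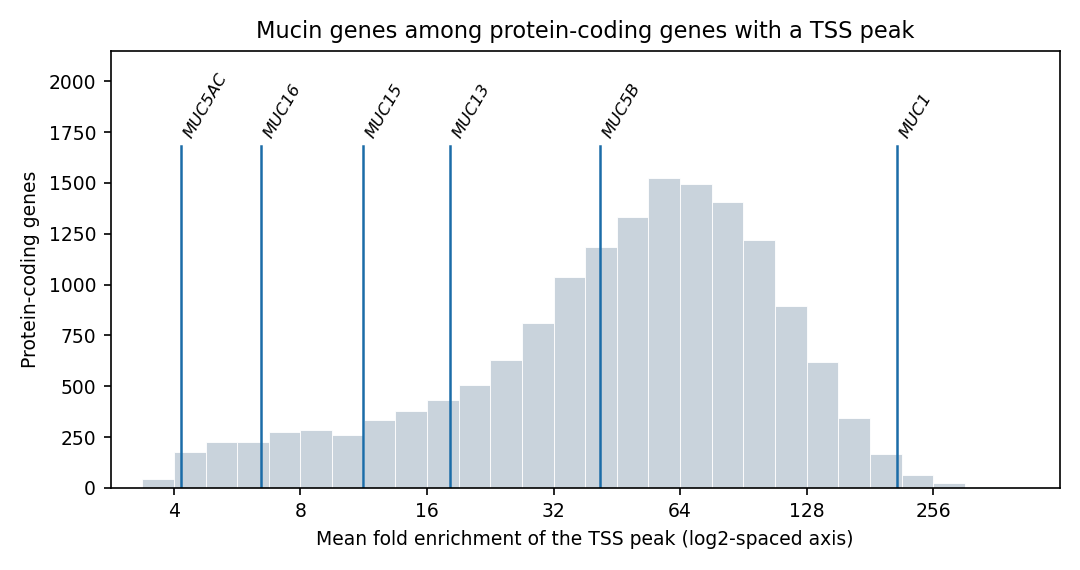
Mean fold enrichment of the TSS peak, on an axis spaced by log2, of all 15890 protein-coding genes with TSS peaks in both replicates (gray bars count genes) and of the 6 mucin genes among them (blue lines). MUC1 lies in the upper tail at 210, MUC5B near the center at 41.4, and MUC13, MUC15, MUC16 and MUC5AC in the lower tail between 18.1 and 4.17.

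The base composition of the promoters was compared with that of the other genes. The CpG ratio, the number of CG dinucleotides over the number expected from the C and G content in the 300 bp around the canonical start, was below 0.6 for 9 of the 10 mucin genes. It ranged among these from 0.221 in MUC20 to 0.418 in MUC1, against a median of 0.775 over 20032 protein-coding promoters. Of the 9 genes, 6 had a TSS peak in both replicates at any annotated start, where 53.9% of the 6535 protein-coding genes with a ratio below 0.6 had one. The peaks of MUC13 and MUC16 lay away from the canonical start, and so away from the bases measured here. At canonical starts alone MUC1, MUC5AC, MUC5B and MUC15 remained, and the matching share of genes with a low ratio was not computed. MUC6, with a ratio of 0.670, was the exception, and it had no TSS peak, where 91.6% of the 13497 genes with a ratio of at least 0.6 had one. The wide peak over the MUC1 start reached beyond this window, and at its center, which lies upstream of MUC1 toward THBS3, the CpG ratio was 0.776.

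Across whole loci the number of regions ranged from 3 in MUC15 and 6 in each of MUC6 and MUC16 to 15 in MUC5B and 17 in MUC4, with a median of 10 over the loci of all protein-coding genes. Per 100 kb, MUC1 had 27.6 regions (percentile 86.9 of protein-coding loci), MUC20 19.9, MUC5B 19.0, MUC4 16.2, MUC2 15.9, MUC5AC 14.4 and MUC13 12.4. MUC6 (9.39), MUC15 (5.64) and MUC16 (2.98, percentile 11.9) lay below the median of 11.6. Open regions covered 69.9% of the 47.1 kb of the MUC1 locus and 1.65% of the 202 kb of the MUC16 locus. In the MUC1 locus 10 of 13 regions lay within 1 kb of a start of another protein-coding gene, the region over the MUC1 start included. Single replicates gave that locus 16 peaks (replicate 1) and 22 peaks (replicate 2), and the MUC15 locus 4 and 5.

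**Figure D3:**
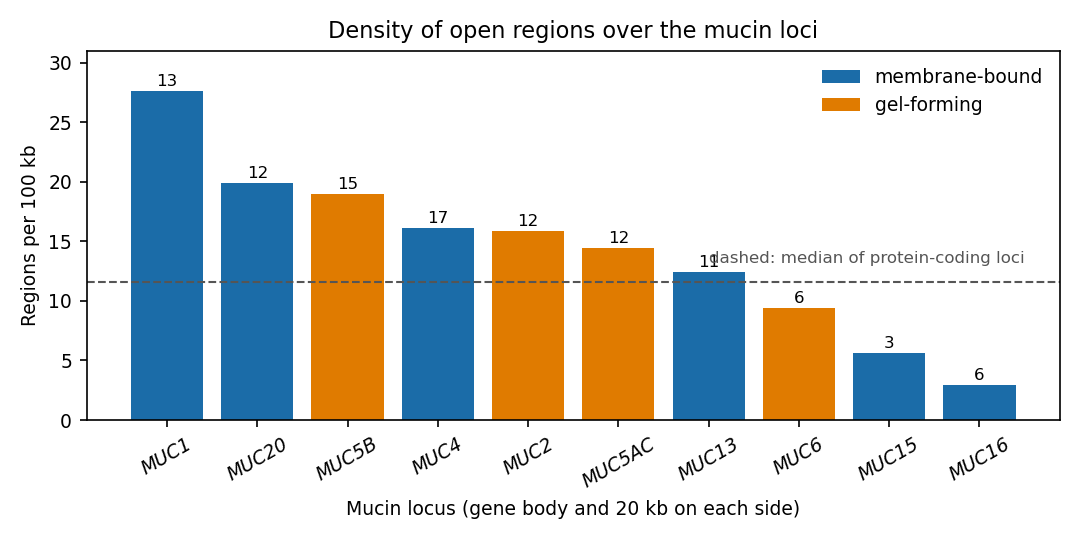
Regions with peaks in both replicates per 100 kb of each mucin locus, with the number of regions above each bar, membrane-bound mucins in blue and gel-forming mucins in orange. The bars fall from 27.6 in MUC1 to 2.98 in MUC16, and 7 of 10 stand above the dashed median of 11.6 of protein-coding loci.

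The regions of the mucin loci were of ordinary strength. Their median fold enrichment was 10.4, against 9.84 over all regions, and 27 of 95 (28.4%) were above 20-fold, against 27.6% of all regions. The replicates differed by a median factor of 1.12 in the fold enrichment of a region. The factor exceeded 1.5 in 7 of 95 regions and reached 2.08 in a weak region downstream of MUC2 (8.74 and 4.20). By position, 8 regions lay within 1 kb of a TSS of a mucin gene and 18 within 1 kb of a start of another protein-coding gene, with 2 regions of the MUC1 locus counted in both. Of the rest, 3 lay at starts of non-coding genes, and by their midpoints 14 were exonic, 31 intronic and 23 intergenic.

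Near MUC1 several other regions were also above 100-fold. A region of 5185 bp in TRIM46 (chr1:155175146-155180330), which encodes a microtubule-bundling protein, reached 266 in replicate 1 and 287 in replicate 2, above the MUC1 peak itself. A region from TRIM46 into the 3′ part of MUC1 (chr1:155180921-155188714) reached 113 and 131 and covered the largest coding exon of MUC1. An intergenic region near KRTCAP2 (chr1:155166983-155168696) reached 144 and 127. At 25.1 kb downstream of the MUC1 start, this was the strongest intergenic region of all 10 loci. Upstream, the shared start of THBS3 and MTX1 reached 104 and 99.3. Every region of this locus had its midpoint nearer to the start of another protein-coding gene than to that of MUC1.

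The MUC1 start thus lay under a strong peak shared with THBS3, and a strong region from TRIM46 reached into the gene (113 and 131). Without summit positions, neither strength could be assigned to MUC1 itself. MUC4, which encodes a very large membrane-bound mucin that binds ERBB2, had a weak start and a strong region inside the gene. No peak lay within 2702 bp of its canonical start at 195811929 in either replicate. The region in intron 1 whose central sequence is given above (chr3:195803922-195805119) had fold enrichments of 122 and 123 (mean 122 ± 0.705) and lay 7.41 kb downstream of that start. Its heights were 529 (485 to 576) and 555 (510 to 603) stacked reads, and it stood at percentile 99.0 of all regions. Intron 1 held 5 more regions, between 4.63 and 11.2 in mean fold enrichment. Farther into the gene, intron 3 held a region of 31.1 and 30.1 and intron 24, the last, a region of 40.7 and 32.1 (chr3:195747678-195748378).

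That last region lay 27.1 kb downstream of the start of MUC20, the neighbor of MUC4 on chromosome 3, and was also the strongest region of the MUC20 locus. Within the MUC20 gene, intron 2 held a region of 23.7 and 22.1 and intron 3 a region of 10.1 and 10.4. Upstream of MUC20, 6 regions with mean fold enrichments between 6.41 and 11.7 lay along the non-coding gene MUC20-OT1. The 5.64 kb between MUC20 and MUC4 held a single region of 7.13 and 5.53.

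**Figure D4:**
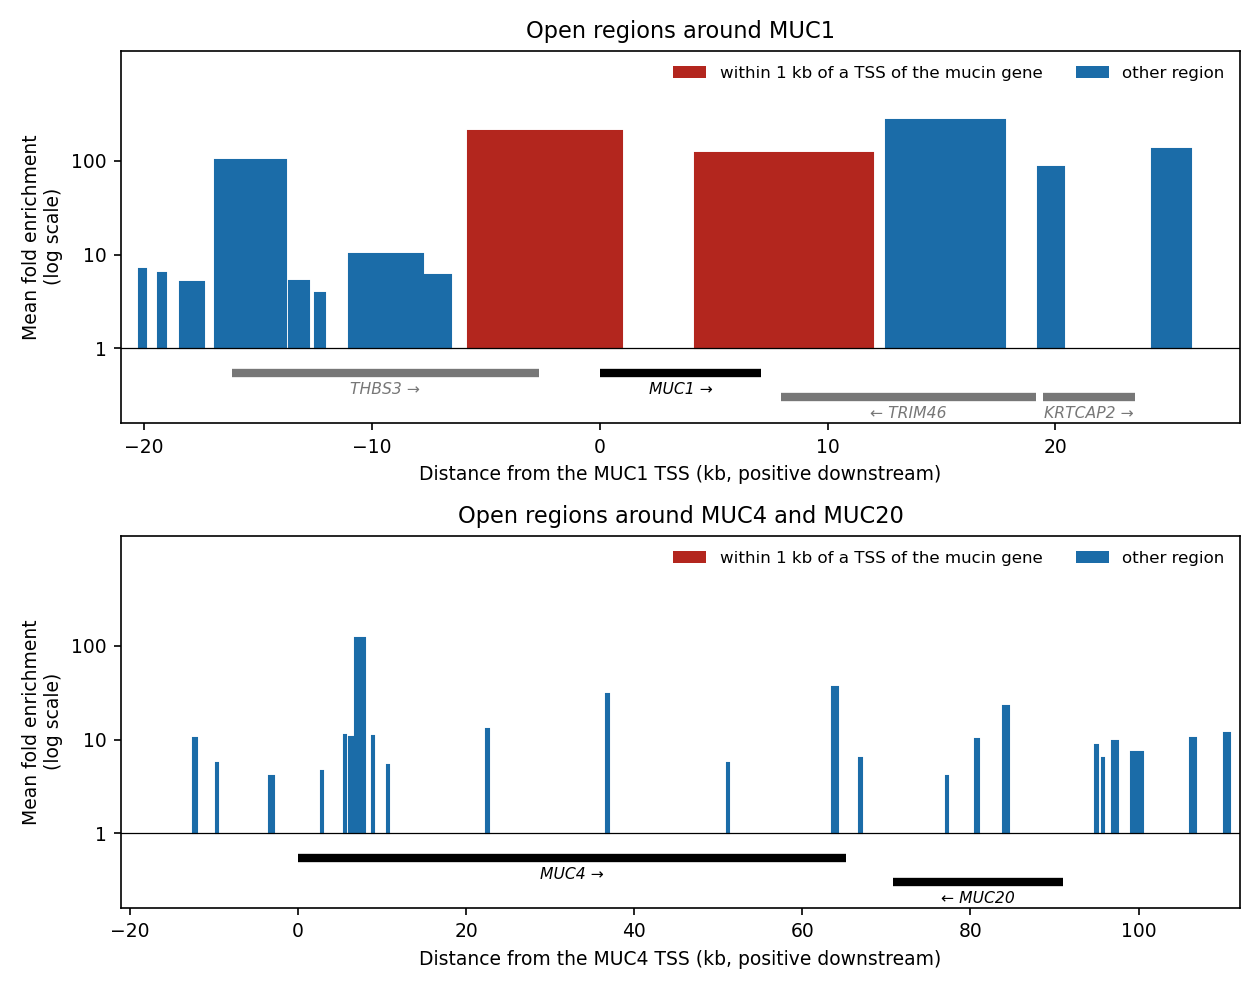
Regions around MUC1 (upper panel) and around MUC4 and MUC20 (lower panel), placed by distance in kb from the start of MUC1 or MUC4, with bar height the mean fold enrichment on a log scale and bar width the width of the region. Gene bodies are drawn beneath with arrows for their direction. The start of MUC1 lies under a wide region of 210, and that of MUC4 has no region, while 7.41 kb into MUC4 a region reaches 122.

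The cluster of gel-forming mucins on chromosome 11 spans 249 kb from MUC6 to MUC5B, and its 4 loci together held 39 regions. Of these regions 12 were above 20-fold, where 27.6% of all regions were. The strongest lay between MUC6 and MUC2, which are transcribed away from each other. This region (chr11:1050897-1051577), whose central sequence is given above, had 80.1 in replicate 1 and 92.0 in replicate 2 and lay 14.5 kb upstream of MUC6. The 38.2 kb between MUC6 and MUC2 held 8 regions, 3 of them above 20-fold, including the MUC2 upstream region of 24.2 and 17.9. The 47.4 kb between MUC2 and MUC5AC held 6, of which 1 was above 20-fold, at 34.3 and 36.9 (chr11:1114628-1115113). The 21.9 kb between MUC5AC and MUC5B held 7, of which 4 were above 20-fold, the MUC5B TSS region included.

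These counts per interval were small, and the spread of strong regions along the cluster was not tested. The strongest of the MUC5AC to MUC5B interval (chr11:1207305-1209209) reached 46.2 and 50.0 at 14.8 kb upstream of MUC5B, and another (chr11:1202812-1203545) reached 34.7 and 34.9. Within MUC5B an exonic region had 25.3 and 21.7, and a region of 22.8 and 28.7 lay at an annotated start near the 3′ end. The strongest region of the MUC5B locus lay just beyond its 3′ end (chr11:1262389-1263189) with 61.9 and 67.9, or heights of 268 (237 to 302) and 306 (273 to 342). Within MUC5AC the strongest region had 9.20 and 5.97, and within MUC6 the strongest had 6.90 and 10.6.

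**Figure D5:**
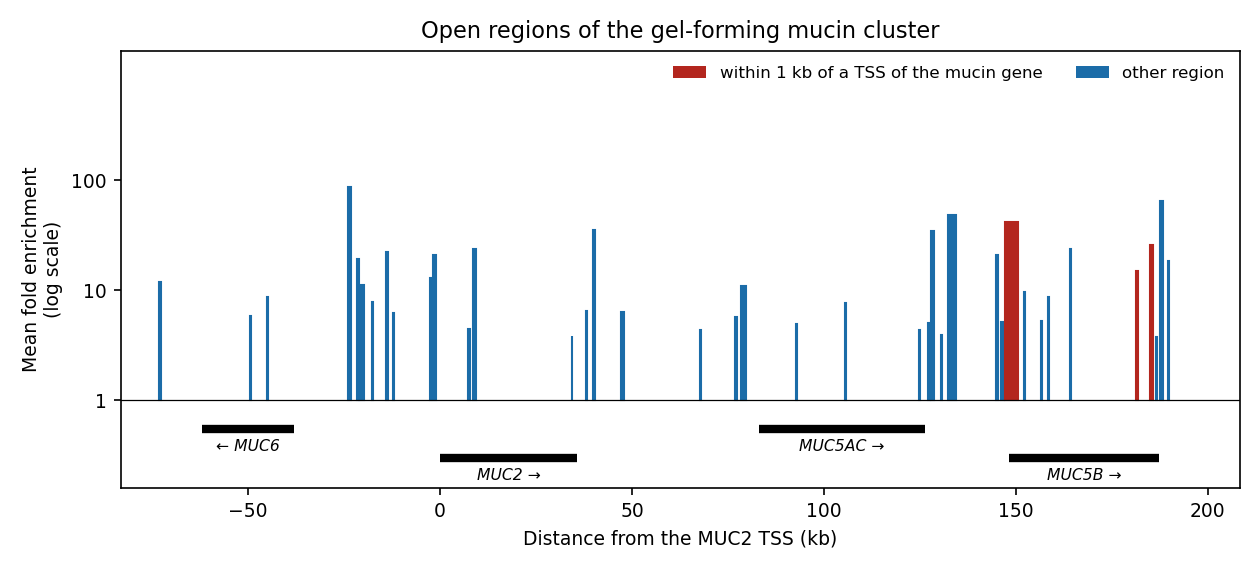
Regions of the gel-forming mucin cluster on chromosome 11 by distance in kb from the start of MUC2, with bar height the mean fold enrichment on a log scale and red bars for regions within 1 kb of a TSS of a mucin gene. The tallest bar (86.0) lies between MUC6 and MUC2, red bars occur at MUC5B alone, and the bodies of MUC6 and MUC5AC hold bars below 10.

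The remaining membrane-bound mucins differed in how much open chromatin surrounded them. MUC13 had regions of 20.9 and 18.8 in intron 4 and of 15.6 and 18.4 at 11.6 kb upstream of its canonical start, while the strongest region of its locus (97.1 and 112) lay at a start of ITGB5, an integrin gene. The strongest region near MUC15 (chr11:26583389-26583937) lay 11.4 kb upstream in an intron of ANO3 and had 33.1 and 38.3, above the 10.6 and 8.85 of the TSS peak of ANO3 itself. MUC16, the longest of the genes with 161547 bp, had 4 regions over its body, of which an exonic one (chr19:8973488-8973821) was the strongest with 20.7 and 19.7. The strongest region of the MUC16 locus, 102 and 92.4, lay at the shared start of ZNF558 and MBD3L1.

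Several mucin genes hold very long exons that encode their serine- and threonine-rich stretches. The largest coding exon was at least 3 kb in 5 of the genes, and 4 of these, in MUC16 (21693 bp), MUC5B (10893 bp), MUC5AC (10371 bp) and MUC6 (3009 bp), held no peak in either replicate. Among the 278 protein-coding genes with such an exon 65.8% had none there. With the shorter largest exons of the other genes counted, 8 of 10 held none, against 76.2% of all protein-coding genes, so that both counts were near the background. The largest coding exon of MUC2 measured 284 bp in the canonical transcript, which ended before the 3′ end of the gene. Exons of other MUC2 transcripts were not examined. In MUC4 the largest coding exon (12708 bp) held 1 region of 13.6 and 12.2. In MUC1 this exon measured 454 bp and lay inside the wide region of 113 and 131. How reads that map to several places were treated is not given in the sources used here, and the part of mapping in these repetitive exons was not tested.

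The letters of the regions were searched for short binding motifs in the central 201 bp, on both strands. Promoters were searched in the 300 bp around the canonical start. A longer window holds more matches, so the promoter shares are not directly comparable with those of the regions. The motif of AP-2 was GCCNNNGGC, that of SP/KLF factors was GGGCGGG, and that of STAT factors was TTCNNNGAA. FOX factors were represented by TGTTTAC and also by its variant TGTTTGC. The motif of the GATA factors was AGATAA, and that of AP-1 was TGANTCA. Grainyhead factors were represented by AACNNGTT, of which AACCGGTT is a special case, ETS factors by CCGGAAG and the TATA box by TATAAA. The CTCF motif was CC followed, after a gap of 3 bases, by AGGGGGC. The estrogen response element was GGTCA followed, after a gap of 3 bases, by TGACC. An AP-2 match was present in 25 of 95 mucin regions (26.3%) against 11.7% of all regions and 29.6% of protein-coding promoters. SP/KLF matches were present in 9 (9.47%) against 5.03% of all regions and 47.1% of promoters. FOX, GATA and AP-1 were each present in 7 (7.37%), against 11.6%, 9.41% and 10.2% of all regions. STAT and grainyhead were each present in 6 (6.32%), against 5.47% and 4.47%. TATA was present in 5 (5.26%) against 8.11%, ETS and CTCF in 1 each (1.05%) against 1.58% and 1.37%, and the estrogen response element in 0 against 0.0646%.

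The mucin regions were also richer in G and C, with a median of 57.7% against 49.8% of all regions, and had a median CpG ratio of 0.273 against 0.188. AP-2 and SP/KLF motifs consist of G and C, and the part of base composition in their shares was not tested. A match is a description of the letters and was not a measurement of binding.

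Genes that act with the mucins were described in the same way, from lists compiled with earlier results of the same data known. Of 15 GALNT genes, which attach the first sugar to mucin repeats, 13 had a TSS peak in both replicates, led by GALNT3 (mean 115), GALNT11 (112) and GALNT6 (103), while GALNT5 and GALNT13 had none. Of 11 genes that extend or cap these sugars, 11 had a TSS peak in both, led by the sialyltransferase gene ST6GALNAC2 (123), by ST3GAL1 (100) and by the core 1 synthase gene C1GALT1 (93.0). These counts stand beside the 79.3% of all protein-coding genes.

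Of 11 other mucin or mucin-like genes 8 had a TSS peak in both replicates, again beside 79.3% of all protein-coding genes. MUCL1, a small mucin of breast epithelium, had 115 and 119, MUC21 98.7 and 90.2, and MUC3A 88.1 and 79.2. MUC7 and MUC22 had none, and EMCN had one in replicate 2 alone. Of 13 genes known from goblet cells 11 had a TSS peak in both, beside the same share, led by the transcription factor genes FOXA3 (mean 105) and SPDEF (94.3). The trefoil factor genes TFF1 and TFF3, which are also targets of the estrogen receptor in breast cancer cells, had means of 33.1 and 56.1. CLCA1 and ERN2 had none.

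The epithelial label was checked against marker genes. TSS peaks in both replicates were present at 7 of 7 luminal genes and at 0 of 5 genes of blood cells, beside 79.3% of all protein-coding genes. The luminal genes ranged from ESR1 (mean 31.9) and GATA3 (49.1) to KRT8 (143), with FOXA1 at 87.6. Such peaks were also present at 5 of 5 fibroblast genes, from LUM (3.96) to COL1A1 (70.3), the latter above ESR1 and GATA3. The median percentile of the luminal genes was 82.1 and that of the fibroblast genes 33.2.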

How the data were processed

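ATAC-seq of 2 biological replicates of CAMA-1 was analysed from 1 peak list per replicate, with no pooling. Per the labels, the authors trimmed reads with Trim Galore 0.6.5, aligned them with Bowtie2 2.3.5.1 to hg38 and called peaks with MACS2 2.2.6. The MACS2 settings and the treatment of duplicate reads are not given in the sources used here. For each peak the authors deposited a score, a ratio of its height to background (fold enrichment), its p-value and its q-value, the last 2 as −log10. The score repeated the q-value and was not used further.

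Fold enrichments were whole multiples of 0.230 in replicate 1 and 0.221 in replicate 2, which gave backgrounds of 3.35 and 3.52 stacked reads and the height of each peak, with an exact Poisson interval (95%). The strongest peak within 1 kb of any start represented a gene. Percentiles were taken over all 20033 protein-coding genes, with 0 for genes without a TSS peak. No test across genes was run, and the 10 genes were named by the rule that set the loci, with the strongest region of each locus and the leading genes of each list. The members and lists were chosen with earlier results of these data known. Promoter bases were read from the hg38 genome, and 5 of the 10 genes were also found in the RefSeq promoter table. Bases in exons of the gene were left out of the printed promoters.

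The scripts were tested on simulated data, where 500 of 500 TSS peaks, 1000 of 1000 regions and 5000 of 5000 peak heights were recovered. Alternatives were a minimum of 10 for −log10 q, a reciprocal overlap of 50%, other windows and loci, 1 TSS per gene, −log10 q as strength and the omission of each replicate. That TSS peaks of both replicates overlap was required in an alternative chosen after seeing the data. The tools were matplotlib 3.10.9, scipy 1.17.1, numpy 2.4.6 and Python 3.11.15. RNA-seq and copy-number profiles of the cell line were not analysed here.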

Additional observations from a re-analysis of the deposited data

How the results depend on the processing

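MUC1 had the highest percentile of the 10 genes in 9 of 9 settings, between 99.4 and 99.6, and the highest of any other mucin gene was 66.8 (MUC5B, with TSS peaks within 3 kb). The wide peak covers the MUC1 start, so every window held it, and no setting separated that start from the start of THBS3. The count of 6 mucin genes with TSS peaks in both replicates was 4 within 250 bp, with 1 TSS per gene or with a reciprocal overlap of 50%, 5 with a minimum of 10 for −log10 q or with overlapping TSS peaks, and 9 within 3 kb, where MUC6 alone lacked a peak. It was 7 and 8 in single replicates. The share of all protein-coding genes with such peaks, 79.3%, became 76.9% with the minimum of 10 for −log10 q, 78.5% with the reciprocal overlap, 74.8% within 250 bp, 85.0% within 3 kb and 73.5% with 1 TSS per gene, and 80.1% to 80.6% in single replicates. The median TSS percentile of the 10 mucin genes, genes without a peak included, was 22.3. With the reciprocal overlap it became 10.7, which is the percentile shared by all genes without a peak in that setting. It became 24.5 within 250 bp, 25.5 within 3 kb and 26.1 with 1 TSS per gene, and 22.4 to 24.4 in single replicates. The 95 regions became 41 over gene bodies alone and 156 with flanks of 50 kb, and the median of 12 per locus became 3 and 20. With only regions whose nearest coding start was that of a mucin gene, the MUC1 locus kept 0 of 13 and the MUC13 locus 5 of 11. The total and the median per locus became 73 and 8.5 there. In single replicates, where every peak counts, they were 119 to 122 and 14 to 14.5. The median fold enrichment of the regions, 10.4, became 12.4 with the same minimum and 11.2 with flanks of 50 kb, and 7.52 to 8.28 in single replicates. Their median percentile among all regions, 52.0, became 45.6 and 54.8 in these settings, and 47.1 to 49.5 in single replicates. The 13 regions of the MUC1 locus became 22 and the 3 of the MUC15 locus 5 without replicate 1, as single peaks. The TSS peaks of MUC5AC, MUC16, MUC2, MUC4 and MUC20 rested on heights of 16 to 30 stacked reads, and the depth of the libraries was not known from the peak lists. No paired analysis was possible because CAMA-1 was measured in a single condition.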

Other observations

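The start of MUC16 differed between annotations. RefSeq placed a start at 9065751 on chromosome 19, 55361 bp upstream of the nearest GENCODE start, and another at 9010409, 19 bp from a GENCODE start. The nearest peaks to the former lay 4394 bp away in replicate 1 (5.06-fold) and 4378 bp away in replicate 2 (4.42-fold), so that the MUC16 gene had no TSS peak at its most distal annotated start and a weak one at the other.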
